A study of Mus musculus with 6 samples.

Results

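The transcripts described here are 10 genes of the opioid and related neuropeptide systems, chosen by name from the 24935 genes of the deposited table: the opioid precursors Penk, Pdyn and Pnoc, the receptors Oprd1, Oprk1, Oprl1 and Oprm1, and the precursors Tac1, Tac2 and Adcyap1. Messenger RNA from the left hippocampus of C57BL/6 mice without any engineered allele was sequenced at postnatal day 14 (P14), with 1 library per mouse. The pups were kept with their dams from P2 to P14 in room air (air-exposed, n = 3) or in 85% oxygen at normal pressure (hyperoxia-exposed, n = 3). The study used this exposure as a model of the oxygen given to preterm infants and asked how it affects the hippocampus. Each library held between 30384052 and 38746972 reads on genes, and the values below are read counts divided by a size factor for the library, called normalized counts. Libraries are numbered 1 to 3 within a group after their columns, and these numbers do not name an animal. Each direction given here rests on the groups named in the columns, and no gene was added or removed in these mice that could check those names. The sources are in conflict on this point. For the genes looked up in both, Pdyn and Dpp3 among them, the fold changes in the study's tables have signs opposite to those from the named columns. Either those signs or the column names may be at fault, which was not settled here, and if the names were exchanged every direction below would reverse. The study is not uniform either, as its Results word Arc, Egr1 and C/EBP mRNA as decreased by hyperoxia. Its table and Discussion give the same genes as increased. In the columns named hyperoxia, 8 of 9 oligodendrocyte markers were lower and 4 of 9 astrocyte markers were higher by the test given below. Among all genes tested, 15.6% were lower and 14.9% were higher. In the same columns 10 of 15 genes induced by neuronal activity were lower and none was higher, whereas the study's table gives Arc and Egr1 as increased. By staining at P14, the study reported less area with the myelin protein CNPase and more with the astrocyte protein GFAP in CA1 after hyperoxia.

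Neuropeptides are cut from larger precursor proteins by prohormone convertases, stored in dense-core vesicles and released during sustained firing. The enkephalins made from Penk act mainly on the delta receptor (Oprd1) and the mu receptor (Oprm1), the dynorphins made from Pdyn on the kappa receptor (Oprk1), and nociceptin made from Pnoc on its own receptor (Oprl1), and all of these receptors couple to inhibitory G proteins. Substance P from Tac1 acts on Tacr1, neurokinin B from Tac2 on Tacr3, and the pituitary adenylate cyclase-activating polypeptide from Adcyap1 on Adcyap1r1 and on the receptors it shares with vasoactive intestinal peptide. In the hippocampus, dynorphin is a peptide of the mossy fibres of dentate granule cells, and several of the others are made by groups of GABAergic interneurons.

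Of the opioid precursors, the enkephalin precursor Penk was lower in the hyperoxia-exposed mice, whereas Pdyn and Pnoc did not pass the test. The opioid receptors Oprd1, Oprk1 and Oprl1 were higher, and Oprm1 had too few reads to be tested. Tac1 and Adcyap1 were higher and Tac2 was lower. A gene was called when the limma test on log2(normalized count + 1) gave an adjusted p under 0.05 over the 17778 genes tested. By this rule 5 of the 9 tested members were higher and 2 were lower, while among all genes tested 14.9% were higher and 15.6% were lower. The median log2 fold change of the 9 was 0.66, against −0.007 over all genes tested. Because the members were chosen with earlier results of these data known, these comparisons are a description only. The air and hyperoxia values did not overlap for the same 7 members, beside 46.1% of all genes tested, and an exact two-sided permutation test of 3 against 3 cannot give a p below 0.1.

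**Figure D1:**
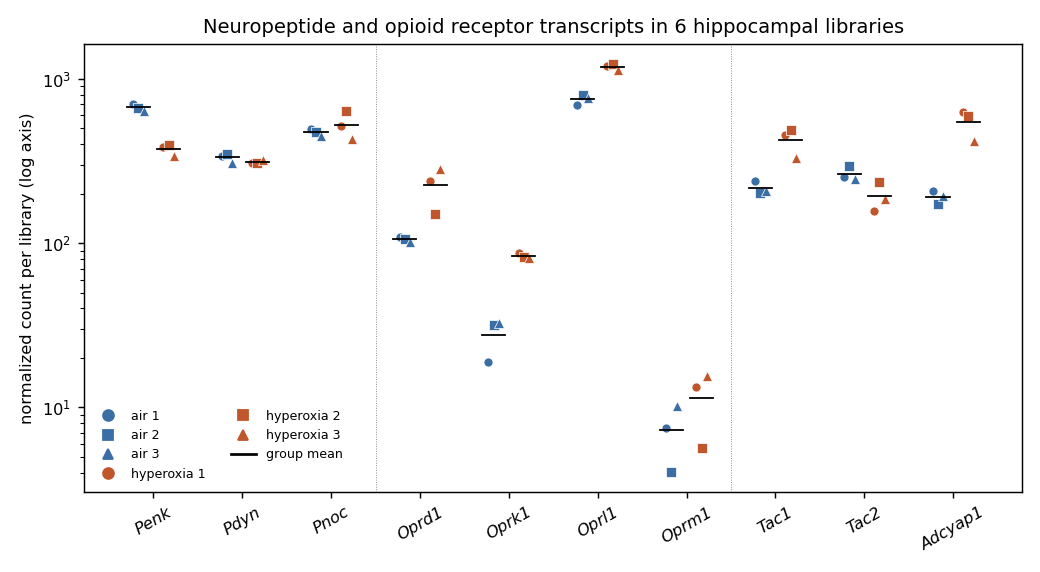
Normalized count (log axis) of each member in each library, with air-exposed mice in blue, hyperoxia-exposed mice in orange, a marker shape for each library number and a bar at the group mean (n = 3). Oprk1, Oprd1, Oprl1, Tac1 and Adcyap1 sit higher in all hyperoxia libraries than in any air library, Penk and Tac2 sit lower, and Pdyn, Pnoc and Oprm1 overlap.

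Upstream sequence is shown for 3 members that rose, because the cyclic AMP response element is a classical regulatory motif of neuropeptide genes and because these windows differ in base composition. The windows are the 250 bases before a start site in RefSeq on GRCm38.p6, which lists 7 of the 10 members with 13 start sites. Both strands were searched for the full element TGACGTCA, its half-site TGACG, the variant TGCGTCA, which overlaps the half-site, and the AP-1 site TGACTCA. Among 32851 promoter windows of this length these were found in 1.55%, 17.8%, 1.75% and 4.46%. The window of Adcyap1 at chr17:93198767-93199016 on the plus strand had 39.6% G and C and a half-site beginning 91 bases before the start, shown in capitals.
Adcyap1: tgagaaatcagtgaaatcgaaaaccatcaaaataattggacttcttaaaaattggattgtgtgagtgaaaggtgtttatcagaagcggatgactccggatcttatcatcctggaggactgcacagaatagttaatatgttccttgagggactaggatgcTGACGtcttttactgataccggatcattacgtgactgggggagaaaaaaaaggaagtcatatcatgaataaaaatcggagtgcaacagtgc
The stretch of Tac1 at chr6:7554852-7554878 on the plus strand held the variant element, in capitals, beginning 199 bases before the RefSeq start. That start lies inside the Tac1 gene of the annotation used below, which begins at chr6:7554879, directly after this stretch.
Tac1: tccctaaaatTGCGTCAtttcgaacac
A further half-site in Tac1 began 43 bases before the RefSeq start, in a stretch annotated as exon. Of the 250 bases of this Tac1 window, 182 are annotated as exon. The window of Oprd1 at chr4:132144487-132144736 on the minus strand had 80.0% G and C and none of the 4 motifs.
Oprd1: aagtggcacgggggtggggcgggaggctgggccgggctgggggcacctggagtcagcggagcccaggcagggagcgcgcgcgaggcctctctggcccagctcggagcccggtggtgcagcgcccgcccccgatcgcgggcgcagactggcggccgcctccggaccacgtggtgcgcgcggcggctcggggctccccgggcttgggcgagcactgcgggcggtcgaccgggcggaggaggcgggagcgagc
None of the 4 motifs was found in the windows listed for Pdyn, Oprm1, Oprl1 and Tac2. These matches describe the letters of the windows, and binding of a factor was not measured here.

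Penk (ENSMUSG00000045573.9, chr4:4133531-4138819, minus strand of GRCm38), the precursor of the enkephalins, had normalized counts of 701, 666 and 639.6 in air libraries 1, 2 and 3 and of 383, 396 and 338 in the hyperoxia libraries. The lowest air value was above the highest hyperoxia value, and the spread within each group was similar. The mean fell from 669 ± 30.7 (SD, n = 3) in air to 372 ± 30.6 (SD, n = 3) in hyperoxia, so that the air mean was 1.80 times the hyperoxia mean. The log2 fold change was −0.85 (standard error, SE, 0.10, 95% interval −1.06 to −0.63, limma adjusted p = 0.00059), and 92.5% of the genes tested had a smaller change in either direction. Leaving out any 1 library gave values from −0.89 to −0.78. In the annotation, 233 exon bases of Penk are shared with the noncoding gene A830012C17Rik on the opposite strand, and the sources used here do not say whether reads were counted by strand. Since these are bulk tissue libraries, fewer cells that make a transcript and less of it per cell cannot be told apart, for this gene or for any other below.

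Pdyn (ENSMUSG00000027400.11, chr2:129686565-129699844, minus strand), the dynorphin precursor, had 340.0, 350.1 and 305 in the air libraries and 307, 308 and 320.4 in the hyperoxia libraries. The lowest value of all was in air library 3, and the groups overlapped. The means were 332 ± 23.7 and 312 ± 7.59 (SD, n = 3 each). The log2 fold change of −0.09 (SE 0.10, limma adjusted p = 0.53) had a 95% interval of −0.31 to 0.13. The study gave this mRNA a small positive change that was not significant. It also listed prodynorphin among the top upstream regulators predicted from its transcript data.

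Pnoc (ENSMUSG00000045731.5, chr14:65400673-65425472, minus strand), the nociceptin precursor, had 495, 474 and 447 in the air libraries and 515, 633 and 430.5 in the hyperoxia libraries. Hyperoxia library 2 was the highest and hyperoxia library 3 the lowest of all, and the groups overlapped. The means were 472 ± 24.5 and 526 ± 102 (SD, n = 3 each), with a log2 fold change of 0.14 (SE 0.13, 95% interval −0.16 to 0.44, limma adjusted p = 0.45). Without hyperoxia library 2 the value was −0.002 (adjusted p = 0.99).

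The balance among the 3 opioid precursors, taken per kilobase of exon so that the genes can be set beside each other, is given as a description without a test. Penk made up 55.1% ± 0.60 (SD, n = 3) of their summed level in air and 39.4% ± 1.44 in hyperoxia, without overlap. Pnoc made up 29.5% ± 0.11 in air and 41.8% ± 3.58 in hyperoxia, and Pdyn 15.5% ± 0.65 and 18.8% ± 2.46. The shares are bound to sum to the whole, so a lower share of Penk raises those of Pnoc and Pdyn. Penk had the largest share in every air library, while in hyperoxia libraries 1 and 2 Pnoc did.

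Oprk1 (ENSMUSG00000025905.13, chr1:5588466-5606131, plus strand), the kappa receptor, had 18.8, 31.6 and 32.9 in the air libraries and 86.6, 82.7 and 81.1 in the hyperoxia libraries. All hyperoxia libraries were close together and well above the air libraries, of which the first was the lowest. Behind these values stood 20, 31 and 32 reads in air and 98, 73 and 84 in hyperoxia, so that counting alone gives a coefficient of variation of about 19.0% in air and 10.9% in hyperoxia. The mean was 27.7 ± 7.74 (SD, n = 3) in air and 83.5 ± 2.86 in hyperoxia, or 3.01-fold higher. The log2 fold change of 1.59 (SE 0.24, 95% interval 1.06 to 2.13, limma adjusted p = 0.0017) exceeded in size that of 98.9% of the genes tested, and ranged from 1.35 to 1.73 over the fits that omit 1 library.

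Oprd1 (ENSMUSG00000050511.1, chr4:132110726-132144486, minus strand), the delta receptor, had 108, 106 and 102 in the air libraries and 239, 149 and 284 in the hyperoxia libraries. The air libraries were nearly equal, whereas the hyperoxia libraries were spread widely with library 2 the lowest, and the groups did not overlap. The mean rose 2.13-fold, from 105 ± 3.37 (SD, n = 3) to 224 ± 68.4. Its log2 fold change was 1.03 (SE 0.21, 95% interval 0.56 to 1.51, limma adjusted p = 0.0064), with values of 0.84 to 1.30 when any 1 library was omitted.

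Oprl1 (ENSMUSG00000027584.16, chr2:181715016-181720985, plus strand), the nociceptin receptor, had 690.3, 796 and 762 in the air libraries and 1196, 1222 and 1124 in the hyperoxia libraries. It was the receptor with the most reads of the 4, and every hyperoxia library was above every air library. The mean was 749 ± 53.8 (SD, n = 3) in air and 1180 ± 50.9 in hyperoxia, or 1.58-fold higher. On the log2 scale the change was 0.66 (SE 0.08, 95% interval 0.47 to 0.84, limma adjusted p = 0.00098), a smaller change than that of Oprk1 or Oprd1 but with the smallest standard error of the 9 tested members.

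Oprm1 (ENSMUSG00000000766.18, chr10:6758506-7038198, plus strand), the mu receptor, had 7.53, 4.07 and 10.3 in the air libraries and 13.3, 5.66 and 15.4 in the hyperoxia libraries. The groups overlapped, and the values rested on 8, 4 and 10 reads in air and on 15, 5 and 16 in hyperoxia. Its mean over the libraries, 9.37, fell under the minimum of 10 set for testing. When all genes were fitted without that minimum, the log2 fold change was 0.56 (SE 0.47, limma adjusted p = 0.44), so a difference was not detectable at this depth. Its exons share 96 bases with Ipcef1 on the opposite strand, whose mean normalized count was 789, and without knowing the strand setting the reads of that stretch cannot be assigned to either gene.

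Per kilobase of exon, Oprl1 made up 86.9% ± 0.77 (SD, n = 3) of the summed level of the 4 receptors in air and 82.6% ± 4.44 in hyperoxia, and these ranges overlapped. Oprd1 made up 11.4% ± 1.01 and 14.6% ± 4.32, also with overlap. The share of Oprk1 was 1.31% ± 0.31 in air and 2.40% ± 0.06 in hyperoxia, without overlap. Oprm1 stayed under 0.55% in every library.

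Tac1 (ENSMUSG00000061762.12, chr6:7554879-7565834, plus strand), the precursor of substance P and neurokinin A, had 239, 202 and 208 in the air libraries and 452, 487 and 327 in the hyperoxia libraries. Hyperoxia library 3 was the lowest of its group and still above every air library. The mean was 216 ± 20.1 (SD, n = 3) in air and 422 ± 83.9 in hyperoxia, or 1.95-fold higher. On the log2 scale Tac1 rose by 0.94 (SE 0.15, 95% interval 0.60 to 1.29, limma adjusted p = 0.0024), or 0.83 to 1.12 when any 1 library was omitted.

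Tac2 (ENSMUSG00000025400.11, chr10:127724478-127731768, plus strand), the precursor of neurokinin B, had 252, 295 and 244 in the air libraries and 157, 234 and 185 in the hyperoxia libraries. Air library 3 and hyperoxia library 2 were separated by a narrow gap, and the groups did not overlap. The mean fell from 264 ± 27.3 (SD, n = 3) to 192 ± 39.4, so that the air mean was 1.37 times the hyperoxia mean. The log2 fold change was −0.47 (SE 0.16, 95% interval −0.82 to −0.12, limma adjusted p = 0.047), just inside the threshold. The call was lost in 8 of 16 alternative analyses, among them those without air library 1 (adjusted p = 0.11), air library 2 (0.17), air library 3 (0.079), hyperoxia library 1 (0.16) or hyperoxia library 3 (0.080), while the value stayed between −0.62 and −0.33.

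Adcyap1 (ENSMUSG00000024256.6, chr17:93199017-93206537, plus strand) had 207, 172 and 193 in the air libraries and 631, 594 and 419.9 in the hyperoxia libraries. Hyperoxia library 3 was again the lowest of its group, and the gap to the air libraries was wide. The mean was 191 ± 17.7 (SD, n = 3) in air and 549 ± 113 in hyperoxia, or 2.88-fold higher. For Adcyap1 the log2 fold change was 1.50 (SE 0.16, 95% interval 1.15 to 1.85, limma adjusted p = 0.00046), larger in size than that of 98.7% of the genes tested, and the fits that omit 1 library gave 1.39 to 1.68.

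**Figure D2:**
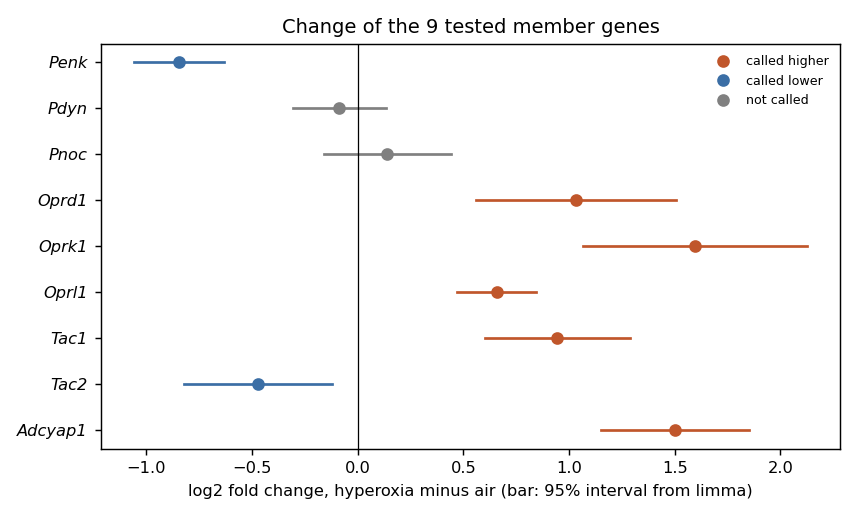
Log2 fold change (hyperoxia minus air) of the 9 tested members, with points for the limma estimate and bars for its 95% interval, in orange where called higher, blue where called lower and grey where not called. The intervals of Oprk1 (1.06 to 2.13) and Adcyap1 (1.15 to 1.85) lie farthest from 0, that of Tac2 (−0.82 to −0.12) lies near it, and those of Pdyn and Pnoc cross it.

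Set on a scale of normalized counts per kilobase of exon, the members were in a different order in the means of the 2 groups. In air the highest level was that of Penk, at 409 ± 18.8 (SD, n = 3), followed by Pnoc at 219 ± 11.3, Oprl1 at 199.6 ± 14.3 and Tac2 at 192 ± 19.8. The ranges of Pnoc and Oprl1 overlapped across libraries, as did those of Oprl1 and Tac2. These genes were measured in the same libraries, and their differences within a library were not tested. Below them in air came Pdyn at 115, Tac1 at 63.7, Adcyap1 at 50.5, Oprd1 at 26.2, Oprk1 at 3.03 and Oprm1 at 0.91. In hyperoxia Oprl1 was the highest at 315 ± 13.6, followed by Pnoc at 244 ± 47.1 and Penk at 228 ± 18.7, whose ranges overlapped. Adcyap1 at 145 ± 29.9, Tac2 at 139 ± 28.6, Tac1 at 124 ± 24.7 and Pdyn at 108 ± 2.63 formed a run in which each neighbour overlapped the next. Oprd1 at 55.7, Oprk1 at 9.12 and Oprm1 at 1.43 remained the lowest.

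The ratio of a receptor to the precursor of its main ligand was computed within each library from normalized counts, as a description without a test, because a ratio repeats the values of its 2 genes. The ratio of Oprk1 to Pdyn was 0.055, 0.090 and 0.108 in the air libraries and 0.282, 0.268 and 0.253 in the hyperoxia libraries, with means of 0.084 ± 0.027 and 0.268 ± 0.015 (SD, n = 3 each). That of Oprd1 to Penk was 0.155, 0.159 and 0.159 in air and 0.624, 0.377 and 0.840 in hyperoxia, so its mean was 3.90-fold higher, and here the receptor rose while the precursor fell. The ratio of Oprl1 to Pnoc was 1.59 ± 0.17 in air and 2.29 ± 0.34 in hyperoxia. For the last of these pairs the gap was narrow, between 1.71 in air library 3 and 1.93 in hyperoxia library 2.

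The receptors of the other 3 precursors were measured as well. Tacr3, the neurokinin B receptor, had normalized counts of 33.0, 30.5 and 37.0 in air and of 148, 223 and 74.3 in hyperoxia, a log2 fold change of 1.98 (SE 0.34, limma adjusted p = 0.0029). Its ratio to Tac2 was 0.128 ± 0.024 in air and 0.765 ± 0.316 in hyperoxia (SD, n = 3 each), with hyperoxia library 3 the lowest of its group. Adcyap1r1, the main receptor of the Adcyap1 peptide, rose by a log2 fold change of 0.57 (SE 0.07, limma adjusted p = 0.0010), from 4634 ± 325 to 6863 ± 201. Since Adcyap1 itself rose more, the ratio of receptor to precursor was lower in hyperoxia, 13.0 ± 3.39 against 24.4 ± 2.20. The substance P receptor Tacr1 did not pass the test, at 69.5 ± 7.43 in air and 94.0 ± 15.4 in hyperoxia (log2 fold change 0.42, limma adjusted p = 0.098, or 0.046 without hyperoxia library 3), and its ratio to Tac1 was 0.324 ± 0.057 and 0.224 ± 0.011. Vipr1 (log2 fold change −0.29, limma adjusted p = 0.083, or 0.020 without hyperoxia library 1) and Vipr2 (0.57, limma adjusted p = 0.15), receptors that the Adcyap1 peptide shares with vasoactive intestinal peptide, did not pass either.

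**Figure D3:**
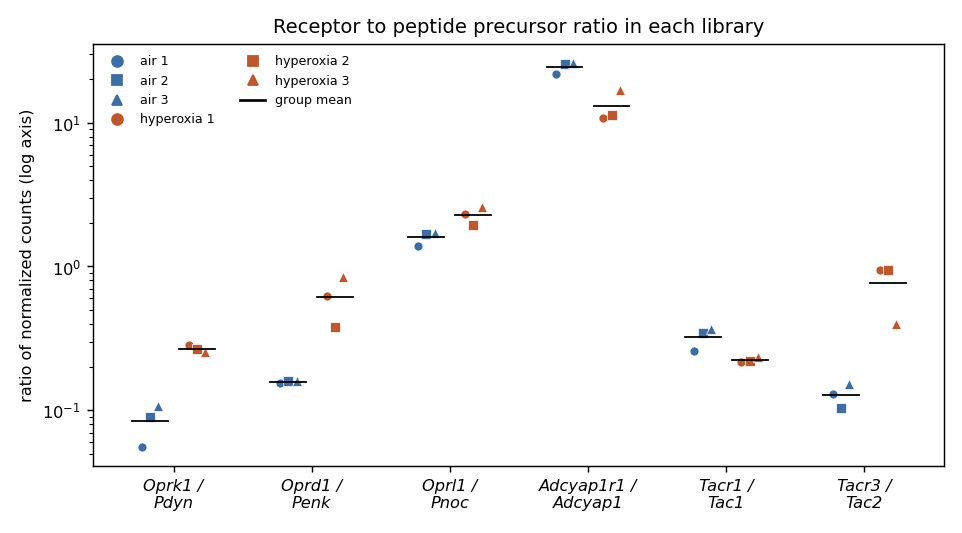
Ratio of receptor to precursor normalized counts (log axis) in each library for 6 pairs, with air-exposed mice in blue, hyperoxia-exposed mice in orange, a marker shape for each library number and a bar at the group mean (n = 3). The ratios Oprk1 to Pdyn, Oprd1 to Penk, Oprl1 to Pnoc and Tacr3 to Tac2 are higher in the hyperoxia libraries, with Tacr3 to Tac2 moving from 0.128 to 0.765, and those of Adcyap1r1 to Adcyap1 and Tacr1 to Tac1 are lower.

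Beyond the members, 42 further neuropeptide precursor genes were in the table and 29 could be tested, of which 9 were higher and 6 lower, with a median log2 fold change of 0.08. The genes called made up 51.7% of those tested, beside 30.5% of all genes tested and 7 of 9 among the members. The largest rises were those of Edn1, which encodes the vasoactive peptide endothelin 1 (log2 fold change 1.71, SE 0.15, limma adjusted p = 0.00029), and of Calca, which encodes calcitonin and its gene-related peptide (1.53, SE 0.26, adjusted p = 0.0028). Cartpt, the precursor of the cocaine- and amphetamine-regulated transcript peptides, rose from 23.6 ± 2.72 to 69.3 ± 19.6 (log2 fold change 1.48, limma adjusted p = 0.0028). Cort, the precursor of cortistatin and a peptide gene of interneurons, rose from 105 ± 9.76 to 262 ± 109 (1.23, limma adjusted p = 0.0081). Falls were found for Npff, the neuropeptide FF precursor, from 55.6 ± 10.8 to 22.7 ± 3.08 (−1.25, limma adjusted p = 0.0042), and for Npw, the neuropeptide W precursor, from 21.3 ± 2.07 to 7.54 ± 1.85 (−1.40, limma adjusted p = 0.011). Of the classical interneuron peptides, Sst (9097 ± 1200 and 8613 ± 2495, limma adjusted p = 0.67) and Npy (2079 ± 229 and 1948 ± 502, limma adjusted p = 0.61) did not pass the test. Cck, from 14331 ± 577 to 11264 ± 1456, was called lower (−0.36, limma adjusted p = 0.021) and Vip, from 475 ± 25.2 to 664 ± 135, higher (0.46, limma adjusted p = 0.034), and these calls were lost in 4 and 6 of the 16 alternatives.

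Among 46 other neuropeptide receptor genes tested, 18 were higher and 6 lower, so 52.2% were called, with a median log2 fold change of 0.29. The neuropeptide S receptor Npsr1 rose from 22.1 ± 10.3 to 97.3 ± 43.9 (log2 fold change 2.10, SE 0.45, limma adjusted p = 0.0075). The relaxin receptor Rxfp1 rose from 515 ± 88.3 to 1836 ± 606 (1.79, SE 0.23, limma adjusted p = 0.00098). Both had wide spreads in hyperoxia without overlap with air. The thyrotropin-releasing hormone receptor Trhr rose as well (1.52, limma adjusted p = 0.010), and its second form Trhr2 was called at low counts of 4.39 ± 4.20 and 15.9 ± 5.58 (1.86, limma adjusted p = 0.035). The vasopressin receptor Avpr1b fell from 23.9 ± 2.41 to 7.97 ± 4.58 (−1.61, limma adjusted p = 0.019). The calls of Trhr2 and Avpr1b were lost in 5 and 3 of the 15 alternatives that gave them a value.

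**Figure D4:**
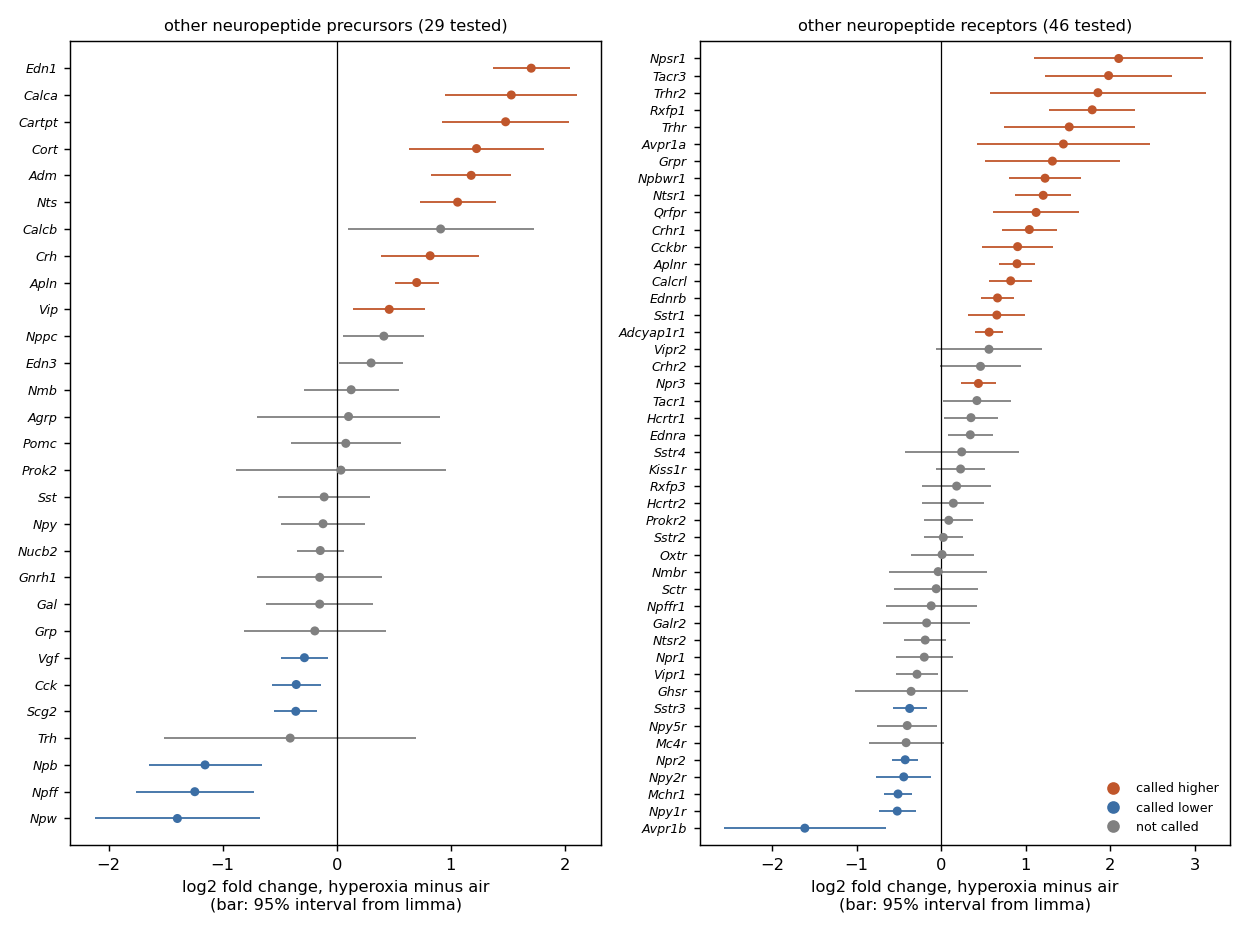
Log2 fold change (hyperoxia minus air) of 29 other neuropeptide precursors (left) and 46 other neuropeptide receptors (right), with bars for the 95% interval from limma, in orange where called higher, blue where called lower and grey where not called. Among the precursors 9 are higher and 6 lower, from Edn1 at 1.71 to Npw at −1.40, and among the receptors 18 are higher and 6 lower, from Npsr1 at 2.10 to Avpr1b at −1.61.

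Opioid receptors act through inhibitory G proteins, adenylyl cyclases and potassium channels, and are switched off by receptor kinases, arrestins and regulators of G protein signalling. Of 30 genes of this group tested, 10 were higher and 4 lower, or 46.7%, with a median log2 fold change of 0.15. Gnai1, an inhibitory G protein alpha subunit, rose from 2972 ± 76.7 to 4607 ± 183 (log2 fold change 0.63, SE 0.07, limma adjusted p = 0.00047), and Adcy8, a calcium-stimulated adenylyl cyclase, rose from 617 ± 22.8 to 1157 ± 247 (0.89, limma adjusted p = 0.0017). The receptor kinase Grk5 rose (0.74, limma adjusted p = 0.0026), whereas of the genes for the beta-arrestins Arrb2 fell from 2383 ± 91.2 to 1536 ± 157 (−0.64, limma adjusted p = 0.0012). The other one, Arrb1, named here after its values were seen, rose from 6845 ± 172 to 9493 ± 347 (0.47, limma adjusted p = 0.0014). Rgs14, a regulator of G protein signalling, fell from 2673 ± 10.7 to 1475 ± 172 (−0.86, limma adjusted p = 0.00045). Another, Rgs17, rose (0.53, limma adjusted p = 0.0054), a call that was lost after correction for transcript length and GC content (0.24, adjusted p = 0.16).

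Of 17 genes for the cutting and breakdown of peptides, 7 were higher and 1 was lower, or 47.1%, with a median log2 fold change of 0.07. The prohormone convertase Pcsk1 rose from 182 ± 33.8 to 354 ± 70.4 (log2 fold change 0.96, SE 0.18, limma adjusted p = 0.0043). The other main convertase, Pcsk2, did not pass the test, at 7216 ± 311 and 7558 ± 658 (0.06, limma adjusted p = 0.57). Mme, which encodes the enkephalin-degrading enzyme neprilysin, rose from 133 ± 5.57 to 221 ± 35.8 (0.72, limma adjusted p = 0.0058). Dpp3, another enzyme that cuts enkephalins, rose by a smaller amount (0.39, limma adjusted p = 0.0049). These directions, like the others, follow the column names. The study reported DPP3 protein as lower after hyperoxia and its mRNA as lower too, a sign opposite to the one given here. Lnpep, an aminopeptidase that cuts oxytocin and vasopressin, rose with a wide spread, from 168 ± 47.0 to 567 ± 293 (1.63, limma adjusted p = 0.0089), and Ace, the angiotensin-converting enzyme, rose as well (0.66, limma adjusted p = 0.012), a call lost without air library 2 (0.54, adjusted p = 0.055). Ece2, an endothelin-converting enzyme, was the one that fell (−0.38, limma adjusted p = 0.0081).

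Several members are also made in regions that border the hippocampus, so markers of those regions were read in the same libraries. Here and below, a sum covers all listed genes with values, including those with too few reads to be tested. The counts of called markers stand beside 14.9% of all genes tested that were higher and 15.6% that were lower. Of 12 thalamic markers tested, 6 were higher and none was lower in hyperoxia, and their summed normalized count was 6174 to 6378 in air and 8767 to 10799 in hyperoxia. Within this list Slc17a6, the vesicular glutamate transporter of the thalamus, was at 630.0, 555 and 593 in air and at 2037, 2186 and 1675 in hyperoxia, while Gbx2, a thalamic transcription factor, stayed between 2.05 and 12.5. Of 12 neocortical markers 7 were higher and 2 lower, with sums of 12665 to 13343 in air and 15188 to 18371 in hyperoxia. Of 9 striatal markers 3 were higher and 1 lower, with sums of 2039 to 2090.0 in air and 2102 to 2297 in hyperoxia that a narrow gap separated, and Drd2, which marks the striatal cells that make enkephalin, was at 141 to 174 and 130.3 to 180.0. Of 8 habenular markers 4 were higher and none was lower, with sums of 2426 to 2564 and 3013 to 3874, and the defining factor Pou4f1 was between 3.77 and 20.4 in every library. These sums moved with the calls of Oprk1, Oprd1, Oprl1, Tac1 and Adcyap1, and their part in those results was not tested.

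Within the hippocampus, the granule cell factor Prox1 was present in every library, at 7919 to 8665 in air and 5181 to 8533 in hyperoxia. Of 12 markers of dentate granule cells 8 were lower and none was higher, with sums of 34449 to 36097 in air and 26552 to 33647 in hyperoxia. By the column names, genes induced by neuronal activity moved in the same direction, with 10 of 15 lower and none higher in the hyperoxia libraries and with sums of 24776 to 29029 and 14810 to 18133. These lists moved with Penk and Tac2, as did the oligodendrocyte markers, and their part in those results was not tested. Pdyn, the precursor of the mossy fibre peptide dynorphin, did not pass the test (log2 fold change −0.09, limma adjusted p = 0.53). Of 17 markers of GABAergic interneurons 2 were higher and 2 lower, or 23.5%, beside 30.5% of all genes tested. Their sums overlapped, at 39692 to 43720 and 42390 to 49217. Gad1, which makes GABA, was at 6471 to 6870 in air and 6048 to 6895 in hyperoxia. Of 5 hypothalamic markers tested none was called, and the sums over all 10 with values were 832 to 873 and 454 to 797. The hypothalamic peptide precursors Avp, Oxt, Pmch and Hcrt were at or near 0, between 0 and 9.06 in every library. Markers of the choroid plexus, which lies beside the hippocampus, summed to 585 to 1480 in air and 536 to 8374 in hyperoxia, the last value in hyperoxia library 3, and 1 of 9 was called. Without that library the log2 fold changes of the called members kept their direction and, apart from that of Tac2, their call.

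**Figure D5:**
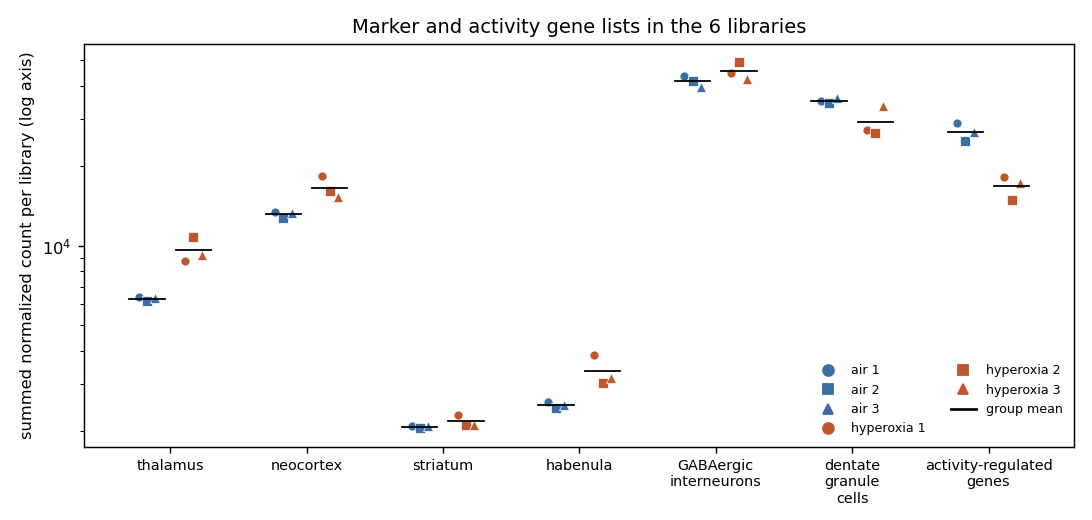
Summed normalized count (log axis) of marker lists in each library, with air-exposed mice in blue, hyperoxia-exposed mice in orange, a marker shape for each library number and a bar at the group mean (n = 3). The thalamic, neocortical and habenular sums are higher in the hyperoxia libraries, the striatal sums are higher by a narrow gap (2090.0 and 2102), the dentate granule cell and activity-regulated sums are lower, and the GABAergic interneuron sums overlap (39692 to 43720 and 42390 to 49217).

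For each tested member, the 3 protein-coding genes with the most similar course over the 6 libraries were found among 13176 genes by the root mean square difference of log2 values, each centred on its own mean. For Penk these were Car11, Ypel4 and Fxyd1, at differences of 0.025 to 0.054. Tac2 was followed most closely by Trappc2l, P2rx5 and Slc27a3 at 0.041 to 0.055. Among the members that rose, Oprl1 lay nearest to Tmem229a, Cfap69 and Edil3 (0.051 to 0.057). Tac1 lay nearest to Igsf21, Col26a1 and Chrna4 (0.059 to 0.083), and Oprd1 to Alg10b, Acvr2b and Camk4 (0.068 to 0.10). Adcyap1 had Prph, Tox and Ahnak2 as its nearest genes (0.11 to 0.13). Oprk1, the tested member with the fewest reads, had the most distant neighbours, 8430408G22Rik, Foxp2 and Edn1 (0.20 to 0.26), of which Foxp2 was in the list of neocortical markers and Edn1 in that of precursors. The members that were not called lay near genes with small changes, Pdyn to Tfdp1, Commd8 and Lsg1 (0.019 to 0.032) and Pnoc to Syngr3, Elp5 and Mcrs1 (0.032 to 0.035). This likeness is a description over 6 libraries that share their depth and grouping.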

How the data were processed

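Left hippocampal RNA of 3 air-exposed and 3 hyperoxia-exposed mice was sequenced by the authors from strand-specific polyadenylated libraries as paired-end reads. The submitters' processing notes name FastQC, STAR 2.5.3a, HTSeq and DESeq2, and the sources used here do not give the genome build or strand setting. The deposited signal of a gene is its reads over the size factor that the authors set for the library, and 100.0% of values lay within 0.01 of whole reads. A second deposited table holds the authors' own mean, fold change, standard error, statistic and p-values, and was not used.

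Here log2(normalized count + 1) was tested, for the 17778 genes whose mean reached 10, with limma 3.58.1 (R 4.3.3, mean-variance trend), with Benjamini-Hochberg adjustment over all of them and a threshold of 0.05. Fold changes on this scale understate those of low genes. The labels describe 1 animal per sample. Gene positions come from GENCODE M21 on GRCm38, which held 99.7% of the identifiers, 84.9% with the same version. The alternatives were pseudocounts of 0.5 and 5, no minimum, a minimum of 50, quantile normalization, TMM scaling, limma without trend, edgeR 4.0.16 and DESeq2 1.42.0 on recovered reads, correction for length and GC content (mgcv 1.9.3, 17735 genes), and each library left out. Members, gene lists and tests were chosen with earlier results of these data known. Genes named beside the members were their direct partners, fixed peptides and convertases, and the 6 called genes of each list with the largest change; marker genes were named for their level or as defining markers. From the striatal marker list 1 gene was left out and is not reported here. The scripts were tested on simulated data.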

Additional observations from a re-analysis of the deposited data

How the results depend on the processing

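Of the 9 tested members, 7 kept their direction and call in all 16 alternatives. The exceptions were Tac2, whose adjusted p ranged from 0.0033 to 0.17, and Pnoc, which was −0.002 without hyperoxia library 2. The number of members called was 6 or 7. The number of all genes called, 5425, was 3048 to 7756 with each library left out (3048 without air library 1, 3087 without air library 2, 3378 without hyperoxia library 1) and 4224 to 6129 otherwise. With each library left out, the called precursors numbered 11 to 19, receptors 19 to 25, signalling genes 12 to 19 and genes of peptide cutting and breakdown 5 to 9, the 5 without air library 2. Among the uncalled genes named beside the members, which were the ones refitted singly, Npy, Sst and Pcsk2 changed sign. The correction for length and GC content gave 0.174 for Npy, 0.159 for Sst and −0.068 for Pcsk2. With each library left out, Npy ranged from −0.31 to 0.059 and Sst from −0.329 to 0.076, with the highest values without hyperoxia library 3, Pcsk2 from −0.005 to 0.113, with the lowest without hyperoxia library 1, and Pnoc from −0.002 to 0.276. Without hyperoxia library 2, Npy and Sst passed the test as lower (adjusted p = 0.043 and 0.034), as did Vipr1 without hyperoxia library 1 (−0.41, adjusted p = 0.020), and Tacr1 passed as higher without hyperoxia library 3 (0.56, adjusted p = 0.046). Ace lost its call without air library 2 (0.54, adjusted p = 0.055). The cause was not tested. The low counts of Oprm1 and Oprk1 limit what depth can show. No paired analysis was possible because the labels number the animals through both groups, which share no replicate number.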

Other observations

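Other marker lists were read as well, and 30.5% of all genes tested were called in either direction. Of 9 oligodendrocyte markers 8 were lower and none was higher in hyperoxia, with summed normalized counts of 219606 to 333463 in air and 150900 to 183988 in hyperoxia, while 3 of 5 markers of oligodendrocyte precursors were higher, with sums of 12344 to 14270 and 16059 to 16979. Of 9 astrocyte markers 4 were higher, with sums of 173380 to 182923 and 213991 to 239695, and of 8 endothelial markers 4 were higher and 2 lower. Of 9 microglial markers 2 were higher and none was lower, or 22.2%, with sums that overlapped. Among pyramidal cell markers, 3 of 8 for CA1 were higher, and of 8 for CA3 1 was higher and 3 were lower, with overlapping sums for both.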
